A study of Mus musculus with 2 samples.

Results

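Among CD4+ CD25+ cells sorted from mouse lymph node and spleen, 414 of 11363 cells carried a set of transcripts led by Dapl1, Tmie, Nrn1, Tnfsf8 and Igfbp4 and gave no transcript of Foxp3. These cells are called members here. Each member passed limits of 500 detected genes or more and no more than 10% of unique molecular identifiers (UMIs, each standing for 1 captured transcript) from mitochondrial genes. It had at least 1 UMI for 3 or more of 8 genes, namely Dapl1, Tmie, Nrn1, Tnfsf8, Igfbp4, Tspan13, Cd40lg and Lypd6b. It had 0 UMIs of Foxp3 and of ICRE, a feature of the deposited gene tables that is not a mouse gene and whose sequence the labels do not give, and 0 of Cd8a and Cd8b1. It also had fewer than 3 summed UMIs of the B cell genes Cd79a, Cd79b and Ms4a1. These readouts chose the members, so the levels of those genes describe the choice and show nothing further.

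The set had been labelled as naive conventional-like CD4 T cells, and the data went against part of that label. Ccr7 and Tcf7 were at or above their level in cells with detected Foxp3 or ICRE, but Klf2, S1pr1 and Il7r were lower, and none of 21 naive and quiescence genes was 1.5-fold higher in both libraries. The lower genes depend on deep cells, since without the 6% of barcodes with the most UMIs 0 of 21 were called either way and the list's median log2 ratio in lymph node went from -0.59 to 0.085. After thinning, Klf2 in lymph node was at 0.19. The members also divided into cells with more Klf2 and Lef1 and cells with more Pdcd1, Cd200 and Ikzf2, described later. The cells are therefore named by the genes that chose them and given no cell type name.

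Conventional CD4 T cells recognise antigen and help other immune cells, whereas regulatory T (Treg) cells, which depend on the transcription factor Foxp3, restrain them. Resting T cells circulate through lymphoid organs with the chemokine receptor Ccr7, and they leave through the lipid receptor S1pr1 under control of the transcription factor Klf2. Activated cells lower these genes and raise growth genes, cytokines such as Il2, and receptors such as PD-1, encoded by Pdcd1. CD25, encoded by Il2ra, is the high-affinity interleukin-2 receptor chain, high on Treg cells and gained by conventional cells on activation, so a CD25 sort can hold both.

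The cells came from healthy female mice with both Myc alleles floxed and with Cre on 1 of their 2 X-linked Foxp3 alleles, written Mycfl/fl Foxp3Cre/WT. Such females hold Treg cells that lost Myc beside Treg cells that kept it, and Cre acts where the Foxp3 allele that carries it is active. YFP+ and YFP- cells were loaded together in 1 droplet lane per tissue, which gave 1 lymph node library and 1 spleen library. Every cell here, in every group compared, comes from these same mice. Neither an age nor the number of animals is given in the sources used here. With 1 library per tissue there is no replicate and no test. All intervals are 95% intervals of counting error only, exact Poisson for levels, exact conditional for ratios and Clopper-Pearson for shares.

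The libraries held 5079 and 6840 barcodes with 13324306 and 16868549 UMIs, of which 4820 lymph node and 6543 spleen cells passed the gene and mitochondrial limits. The kept cells had medians of 2031 and 1935 UMIs. There were 53 barcode sequences found in both libraries, 2 of them among lymph node and 3 among spleen members, and no barcode was a member in both.

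Members made up 3.13% of kept lymph node cells (151 cells, interval 2.66 to 3.66) and 4.02% of kept spleen cells (263 cells, interval 3.56 to 4.52). They were deeper than the other cells, with medians of 3897 UMIs in lymph node (range 1265 to 30005) and 3204 UMIs in spleen (range 1124 to 25855). The deepest 10% of members gave 31.3% of their lymph node UMIs and 28.6% of their spleen UMIs. When every cell was thinned to 1200 UMIs before the rule was applied, 0.416% of lymph node cells (19 cells) and 1.25% of spleen cells (75 cells) qualified. The share therefore moves with depth, and it is not an abundance of a cell type.

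Most members stood at the threshold. In lymph node 117 had exactly 3 of the 8 genes, 28 had 4 and 6 had 5. In spleen 193 had 3, 59 had 4, 10 had 5 and 1 had 6. Tspan13, a tetraspanin membrane protein, was detected most often, in 129 of 151 lymph node and 224 of 263 spleen members. It was also at 246 CPM (UMIs of a gene per 1000000 UMIs of the summed cells) in lymph node B cell barcodes and 140 CPM in spleen ones, so it does not single out T cells.

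The other genes that chose the members are described by level only. Tnfsf8, the CD30 ligand, was at 321 CPM in lymph node and 199 CPM in spleen members. Nrn1, which encodes the membrane-anchored protein neuritin, was at 239.5 and 218 CPM. Cd40lg, the ligand through which helper T cells activate B cells, was at 94.7 and 105 CPM. These 3 genes are products of activated or helper cells, and Nrn1 was present in 81 lymph node and 96 spleen members. Dapl1, a gene of resting T cells, was at 144 and 214 CPM, and Tmie, a membrane protein studied in hearing, was at 31.2 and 53.7 CPM. Igfbp4, a secreted protein that binds insulin-like growth factors, was at 90.2 CPM in lymph node and 312 CPM in spleen. It was detected in 43 of 151 lymph node members against 156 of 263 spleen members, the widest gap between tissues of the 8 genes. Lypd6b was detected in 10 and 11 members. CD8 cell barcodes held Dapl1 at 257 CPM in lymph node and 227 CPM in spleen, above the members, so it does not single out CD4 T cells. The others of the 8 genes were lower there than in members, with Tmie at 9.19 and 16.7 CPM and Igfbp4 at 64.3 and 60.0 CPM.

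The 8 genes did not form 1 tight programme. Pairs of the 8 genes were read among cells without Foxp3, ICRE or CD8 transcripts and within the B cell limit, thinned to 1200 UMIs. The cells sharing a pair were compared with the number of shared cells that independent detection would give. Over the 9 lymph node pairs with at least 5 such cells, the median ratio of observed to independent was 1.05 (range 0.758 to 1.88). Over the 16 spleen pairs it was 1.24 (range 0.777 to 2.46). The highest spleen ratio was that of Dapl1 with Igfbp4, detected together in 31 cells where 12.6 would be independent. In lymph node the same pair shared 2 cells against 1.91.

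The upstream sequences of this pair are shown because Dapl1 and Igfbp4 mark the same side of the members below. Each run is the 250 bases before the RefSeq start on GRCm38.p6, 5′ to 3′. Capitals mark the forkhead motif TGTTTAC (reverse complement GTAAACA), the kind of site that FoxO factors of resting T cells bind.
Dapl1, chr2:59484403-59484652, plus strand: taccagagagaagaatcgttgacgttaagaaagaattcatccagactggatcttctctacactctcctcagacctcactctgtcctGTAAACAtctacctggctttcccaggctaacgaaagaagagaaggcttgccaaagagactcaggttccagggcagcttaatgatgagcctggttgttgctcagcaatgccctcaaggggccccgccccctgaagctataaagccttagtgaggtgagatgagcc
Igfbp4, chr11:99040994-99041243, plus strand: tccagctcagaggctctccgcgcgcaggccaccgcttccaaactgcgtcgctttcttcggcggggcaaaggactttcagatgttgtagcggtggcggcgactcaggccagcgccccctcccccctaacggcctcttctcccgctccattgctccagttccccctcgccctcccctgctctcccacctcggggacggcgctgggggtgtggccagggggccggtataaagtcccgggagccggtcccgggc
The Dapl1 window held the motif 164 to 158 bases before the start and the Igfbp4 window did not. Windows were found for 5 of the 8 genes, and those of Tmie, Tnfsf8 and Tspan13 did not hold it either. The motif occurs on either strand in 3.17% of 32851 windows of this length. Neither window held the TCF/LEF motif CTTTGA, found in 13.8% of windows, or the NFAT motif GGAAAA, found in 20.4%. A match is a run of letters and not a measured binding site.

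The number of the 8 genes a cell carried went with other genes. Ikzf2, which encodes the Treg-associated transcription factor Helios, was at 726 CPM in lymph node cells with none of the 8 genes, 742 CPM with 1, 586 CPM with 2, 216 CPM with 3 and 143 CPM with 4. In spleen it was at 638, 693, 527, 330 and 122 CPM, so it was lower from 2 genes on and not at 1. The step from 2 to 3 genes, the edge of the rule, was therefore from 586 to 216 CPM in lymph node and from 527 to 330 CPM in spleen. Klf2 was lower at each step up to 3 genes, from 1287 CPM with none to 1006 with 1, 803 with 2 and 456 with 3 in lymph node, and from 1317 to 1124, 818 and 537 in spleen. S100a4, a calcium-binding protein of migrating effector cells, went from 227 CPM with 2 genes to 42.3 CPM with 3 in lymph node, and from 104 to 70.9 CPM in spleen. Cd200, a membrane glycoprotein, went the other way, from 113 to 182 CPM in lymph node and from 128 to 160 CPM in spleen. Median depth rose along the same classes, from 1661 UMIs with none to 3505 with 3 in lymph node and from 1605 to 2938 in spleen, and its part in these differences was not tested.

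**Figure D1:**
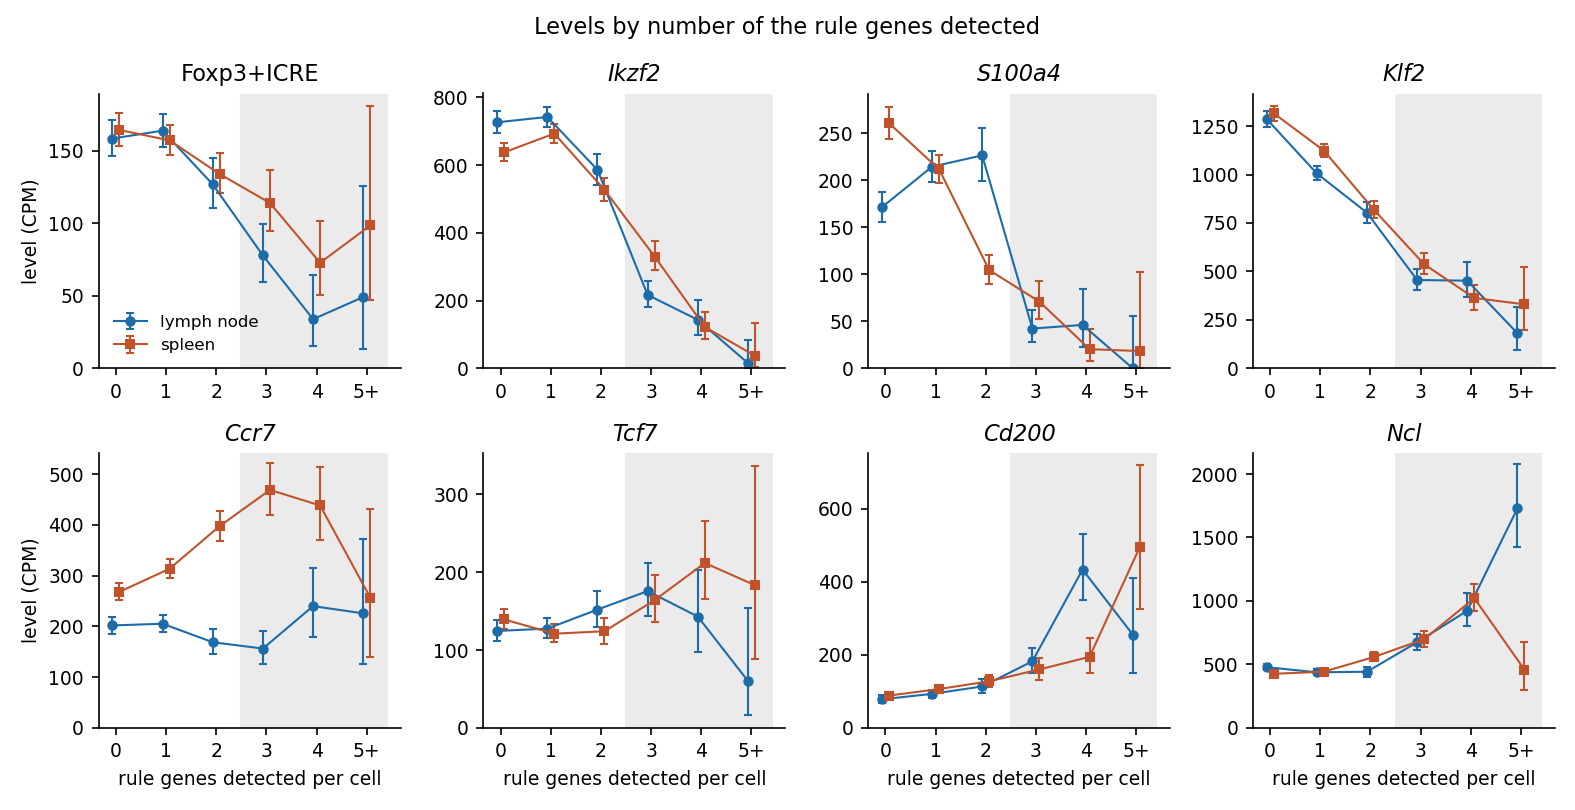
Levels (CPM, y axis) by the number of the 8 rule genes detected per cell (x axis, 5+ is 5 or more) in lymph node (circles) and spleen (squares). Bars are 95% Poisson intervals, grey marks the members' side of the threshold, and Foxp3+ICRE is taken before the Foxp3 and ICRE limit. Ikzf2 and Klf2 are lower with 3 genes than with 2 in both tissues and Ccr7 is higher in spleen than in lymph node up to 4 genes.

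A member has 0 Foxp3 and ICRE UMIs by rule, so the level was read before that limit was set. Among cells passing the CD8 and B cell limits, summed Foxp3 and ICRE were at 159 CPM in lymph node cells with none of the 8 genes and 77.8 CPM (interval 59.8 to 99.6) in those with 3. In spleen they were at 164 CPM and 114 CPM (interval 94.4 to 137). The share of cells with at least 1 such UMI was 25.8% with none of the 8 genes and 26.9% with 3 in lymph node, and 24.7% and 26.6% in spleen, at the rising depth given above. B cell barcodes, which should lack Foxp3, held it at 50.5 CPM in lymph node and 51.8 CPM in spleen. Some of these barcodes also held Trac, as given below, and no doublet caller was applied, so they are not a clean background. At such low counts a cell with 0 UMIs is not shown to lack Foxp3, and a cell with 1 UMI is not shown to express it.

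Against the cells with at least 1 UMI of Foxp3 or ICRE (1240 in lymph node and 1601 in spleen, with the same CD8 and B cell limits), members had less of the Treg and effector genes and more of a growth programme. A gene was compared when it averaged at least 50 CPM over both groups in each library, and it was called when the ratio reached 1.5 in the same direction in both. Of 2352 genes outside the rule, 36 were higher in members, or 1.53%, and 77 were lower, or 3.27%. The same comparison with the detected cells weighted to the members' UMIs per cell gave 13 higher and 56 lower, and leaving out the 6% of barcodes with the most UMIs gave 5 and 32. With totals that leave out ribosomal protein and mitochondrially encoded genes the split was 82 higher and 96 lower. The lower side was thus less dependent on deep cells than the higher side.

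The Treg list had 14 genes tested, of which 8 were lower in members in both libraries and none was higher. Its median log2 ratio was -0.81 in lymph node and -0.77 in spleen, beside 0.02 and -0.02 over all genes tested. Ikzf2 was 4.40-fold lower in lymph node members (184 against 808 CPM, interval 3.76 to 5.18). It was 3.11-fold lower in spleen members (251 against 782 CPM, interval 2.76 to 3.52). Il2ra, the gene of the sorted antigen CD25, was at 50.1 CPM in lymph node members and 158 CPM in detected cells, and at 104 and 212 CPM in spleen. Both tissues thus showed the same direction, with the gap wider in lymph node. Ctla4, an inhibitory receptor through which Treg cells act, was at 70.2 against 205 CPM and at 124 against 272 CPM. Tnfrsf18, the receptor GITR, was at 214 against 409 CPM and at 293 against 466 CPM. Gpr83, a receptor of Treg cells, differed more in lymph node, at 13.4 against 110 CPM, and less in spleen, at 59.0 against 115 CPM. Lrrc32, which presents latent TGF-beta on Treg cells, was at 14.5 against 73.1 CPM and at 18.8 against 68.6 CPM.

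Not all genes of the list moved. Tnfrsf9, the receptor 4-1BB, was at 139 CPM in members and 137 CPM in detected cells of lymph node, and at 153 CPM in both groups of spleen. Izumo1r, the folate receptor FR4, was at 1010 and 1155 CPM (members, then detected cells) in lymph node, with 649 and 788 CPM in spleen, short of 1.5-fold in both. With the 6% of barcodes with the most UMIs left out, 5 of the 18 genes then tested were lower and 0 higher, and with weighting by UMIs 5 of 13 were lower.

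Genes downstream of interleukin-2 and STAT5 were lower too. Of 8 tested, 4 were lower in both libraries, namely Il2ra, Il2rb, Cish and Pim1, and none was higher. Pim1, a kinase gene induced by cytokines, had 92.4 CPM in lymph node members where detected cells had 322 CPM, and 80.5 where they had 309 CPM in spleen. Il2rb, the shared beta chain of the receptor, was at 178 against 349 CPM and at 189 against 319 CPM. Cish, a feedback inhibitor of this pathway, was at 46.8 against 76.4 CPM and at 51.9 against 99.4 CPM. The cytokine itself, Il2, was at 40.1 CPM in lymph node members and 10.2 CPM in detected cells, and at 33.1 against 8.63 CPM in spleen. In spleen 18 of the 37 UMIs came from 1 cell, and at 1200 UMIs per cell Il2 was found in 1.15% of spleen members (interval 0.24 to 3.32) and 1.05% of detected cells. In lymph node the shares were 4.64% (interval 1.88 to 9.32) and 1.75%. B cell barcodes had it in 0 of 110 and 0 of 104, with upper bounds of 3.30% and 3.48%. Without thinning, Il2 was in 21 of 151 and 17 of 263 members and in 36 of 1240 and 40 of 1601 detected cells. Il2 was too low for the 50 CPM limit and was not among the counted genes.

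Effector and memory genes were lower in members, with median log2 ratios of -0.71 in lymph node and -1.17 in spleen. Of 14 tested, 9 were lower in both libraries, 1 was higher and the other 4 were not called. S100a4 was 9.06-fold lower in lymph node members (40.1 against 363 CPM, interval 6.51 to 13.0). In spleen it was 7.42-fold lower (52.8 against 392 CPM, interval 5.73 to 9.78). S100a6, a related calcium-binding protein, was at 175 against 641 CPM and at 81.4 against 675 CPM. Crip1 was at 637 against 1367 CPM and at 547 against 1408 CPM, and Maf, a transcription factor of effector T cells, was at 56.8 against 120.0 CPM and at 21.5 against 93.7 CPM. Klrg1, a receptor of terminal effector cells, had 3 UMIs in all lymph node members and 5 in all spleen members, at 3.34 against 70.3 CPM and 4.47 against 52.2 CPM. Ccr2, Ccl5, Lgals3, Cd7 and Rora were also among the 12 lowest genes, between 3.58 and 22.4 CPM in members and between 51.2 and 104 CPM in detected cells. Cd44, an adhesion receptor raised on memory cells, did not follow them, at 75.7 against 71.1 CPM and 66.2 against 67.4 CPM. Without the 6% of barcodes with the most UMIs 7 of the 13 genes then tested were lower. The exception among called genes was Nkg7, a granule gene of cytotoxic cells, at 170 CPM in lymph node and 220.0 CPM in spleen members beside 92.6 and 88.7 CPM in detected cells. It came from 27 lymph node members, with 53 of 153 UMIs in 1 cell, and 35 spleen members, with 40 of 246 UMIs in 1. Its lymph node ratio changed direction after thinning, as given at the end.

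The naive and quiescence list was split. Ccr7 was at 182 CPM in lymph node members and 163 CPM in detected cells, a ratio of 1.12 (interval 0.933 to 1.33), and at 449 against 264 CPM in spleen, a ratio of 1.70 (interval 1.53 to 1.88). Tcf7, a transcription factor of resting and memory-like T cells, was at 159 against 116 CPM and at 180 against 89.2 CPM. Lef1, its relative, was at 160 against 169 CPM and at 234 against 183 CPM. Klf2 was 2.09-fold lower in lymph node members (434 against 906 CPM, interval 1.88 to 2.32) and 2.07-fold lower in spleen members (473 against 980.1 CPM, interval 1.89 to 2.27). Il7r, the survival receptor for interleukin-7, was at 100.2 against 211 CPM and at 67.1 against 183 CPM. S1pr1 and Tsc22d3 were also called lower, which makes 4 of 21 lower and 0 higher. Without the 6% of barcodes with the most UMIs, 0 of 21 were called in either direction, and with the detected cells weighted by UMIs 1 was lower and 1 higher. Homing and egress genes overlap this list, and 5 of 8 were lower, with Itgb7, an integrin chain for gut homing, at 199 against 453 CPM and 218 against 422 CPM. That count was 4 of 8 with UMI weighting and 1 of 8 without the deepest barcodes.

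On the higher side stood Myc target genes of growth and ribosome production. Whether a cell had lost Myc could not be read, since the reporter EYFP gave 2 UMIs, both from spleen, and CRE gave 0, so the detected cells hold an unknown share of Myc-deleted Treg cells. Members also lack ICRE by rule, while 346 of 1240 lymph node and 514 of 1601 spleen detected cells had it. Whether ICRE goes with Myc loss, and so the part of that limit in this list, was not tested. Of 27 Myc target genes tested, 13 were higher in both libraries and none was lower, with a median log2 ratio of 0.87 in lymph node and 0.55 in spleen. Srm, an enzyme of polyamine synthesis, reached 110 CPM in lymph node members beside 31.0 CPM in detected cells, and 93.0 beside 42.7 CPM in spleen. Hspd1, a mitochondrial chaperone, was at 330 against 110 CPM and at 288 against 150.2 CPM. Ncl, the nucleolar protein nucleolin, was at 812 against 450 CPM and at 786 against 520 CPM. Npm1, a nucleolar chaperone of ribosome assembly, was at 1795 against 1016 CPM and at 1785 against 1189 CPM. This pattern depended on the deepest cells. Without the 6% of barcodes with the most UMIs, 0 of 21 tested genes of the list were called and the median log2 ratio was 0.082 in lymph node and -0.037 in spleen. With each cell given equal weight 0 of 24 were called, at medians of 0.50 and 0.32, and with UMI weighting 2 of 27 were called, at 0.41 and 0.34. Myc itself had 40.1 CPM in lymph node and 29.5 CPM in spleen members, with 35.2 and 43.3 CPM in detected cells, so its direction differed between the libraries.

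Among surface receptors, Cd200 and Pdcd1 were higher in members. Cd200 was at 248 against 86.8 CPM in lymph node, a ratio of 2.86 (interval 2.40 to 3.41), and at 187 against 87.1 CPM in spleen, a ratio of 2.15 (interval 1.81 to 2.54). Pdcd1 was at 86.9 against 37.4 CPM and at 79.6 against 37.4 CPM. Rgcc, a regulator of cell cycle kinases, was at 64.6 against 21.2 CPM and 119 against 41.7 CPM, and it came from 34 lymph node and 86 spleen members. Without the deepest barcodes Rgcc had log2 ratios of 1.64 and 1.75 and Cd200 of 1.21 and 0.98, while Pdcd1 in lymph node dropped from 1.22 to 0.19. Icos, a costimulatory receptor, was lower, at 78.0 against 125 CPM and 97.5 against 267 CPM. Mif, a secreted inflammatory factor, was at 746 against 341 CPM and 774 against 419 CPM, and Hsp90ab1, a chaperone, at 1839 against 944 CPM and 1736 against 1099.8 CPM. Both lost most of the gap without the deepest barcodes, with log2 ratios of 0.11 or 0.12 for Mif and 0.15 and 0.07 for Hsp90ab1.

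**Figure D2:**
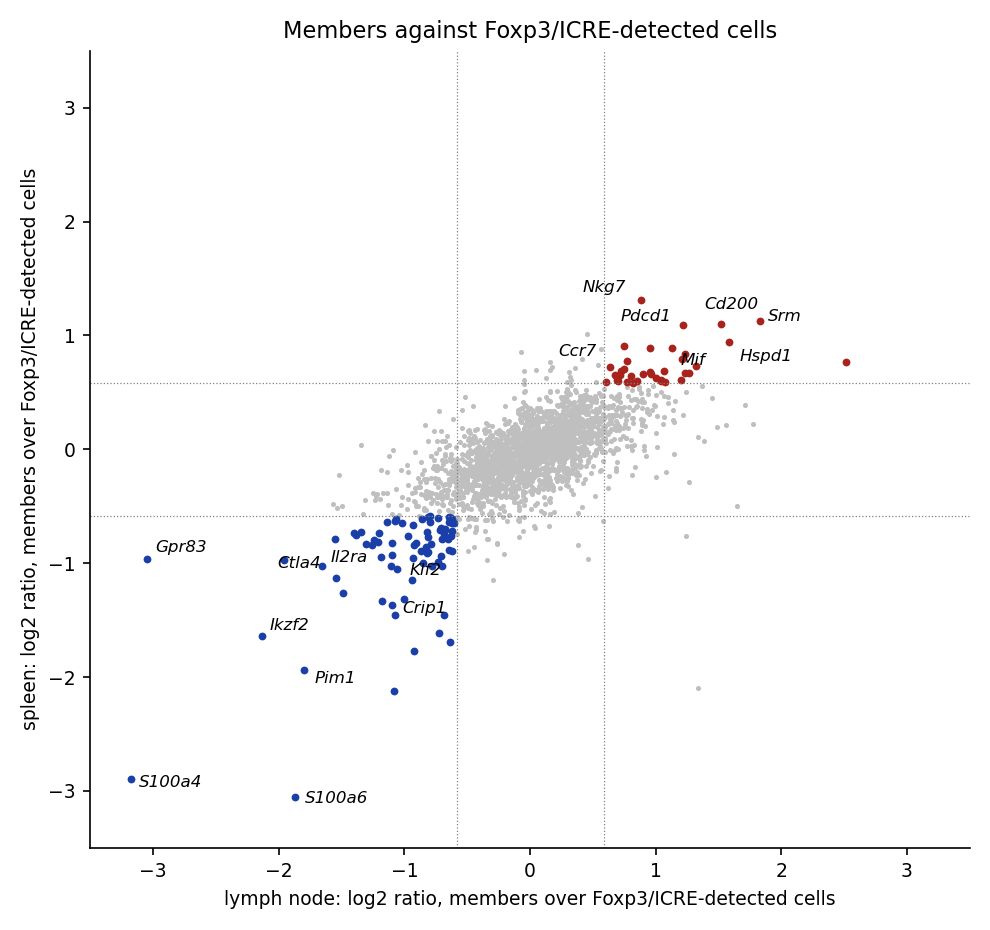
Log2 ratio of levels, members over Foxp3/ICRE-detected cells, in lymph node (x axis) and spleen (y axis), 1 point per tested gene outside the rule. Dotted lines mark 1.5-fold, red the 36 genes higher and blue the 77 genes lower in both libraries. S100a4, S100a6 and Ikzf2 lie at the lower left and Cd200, Srm and Hspd1 at the upper right.

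Genes shared by all T cells were close to even. Of 18 T cell receptor and proximal signalling genes, 0 were called in either direction. Trac, the receptor alpha constant region, had 942 CPM in lymph node and 955 CPM in spleen members, with 945 and 1019.9 CPM in detected cells. Cd3e was at 820 against 763 CPM and 648 against 687 CPM, and Cd4 at 166 against 125 CPM and 146 against 111 CPM. None of 81 ribosomal protein genes, 66 respiratory chain genes, 9 glycolysis genes or 10 mitochondrially encoded genes was called. Immediate early genes, which follow receptor signals within the hour or during dissociation, had 1 of 11 lower, Zfp36, at 40.1 against 92.3 CPM and 54.6 against 90.6 CPM. Interferon response genes had 3 of 13 lower, Ifi203, Ifi209 and Igtp, and Gimap genes, a family of lymphocyte survival GTPases, had 2 of 7 lower, Gimap3 and Gimap7. Of 10 cycling genes, 0 were called in both libraries, since their median log2 ratio was 1.30 in lymph node and 0.01 in spleen.

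A further comparison was with cells that also had 3 or more of the 8 genes but gave Foxp3 or ICRE (50 in lymph node and 103 in spleen). Their median depth was 3850 and 4230 UMIs, against 3897 and 3204 in members. They were not alike in all of the 8 genes, since Dapl1 was at 139 CPM in lymph node and 118 CPM in spleen, where members had 144 and 214 CPM. Of 2237 genes, 17 were higher in members, or 0.76%, and 13 were lower, or 0.581%. The lower genes included Ikzf2, with 184 CPM in lymph node and 251 CPM in spleen members beside 417 and 489 CPM in these cells. They also included Il2ra, Il2rb, Ctla4, Pim1 and Rgs1, a regulator of chemokine signalling. The higher genes included Cd200, at 248 against 158 CPM and 187 against 118 CPM, with Pdcd1, Hspd1 and Id2. None of 21 naive and quiescence genes was called, and S100a4 was at 40.1 CPM in lymph node members against 112 CPM and at 52.8 CPM in spleen members against 72.2 CPM. Of 13 Treg genes 5 were lower, and the list's median log2 ratio was -0.30 in lymph node and -0.59 in spleen, closer to 0 than against all detected cells, while none of 12 effector and memory genes was called lower.

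Against cells with neither Foxp3 nor ICRE and with none of the 8 genes (1383 in lymph node and 1839 in spleen), 118 of 2330 genes were higher in members, or 5.06%, and 133 were lower, or 5.71%. These cells were shallower, with medians of 1661 and 1605 UMIs, and the part of depth was not tested. Of the naive and quiescence list 10 of 21 were lower and 0 higher, and Klf2 was at 434 against 1287 CPM and 473 against 1317 CPM. Ly6c1, a membrane protein of circulating T cells, was at 37.9 against 205 CPM and 40.3 against 233 CPM. Of the Myc targets 20 of 27 were higher. Ikzf2 was at 184 against 726 CPM and 251 against 638 CPM, so cells without detected Foxp3 had mostly as much Ikzf2 as those with it, and members did not.

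The members were not alike. They were divided, after the data were seen, by which of the 8 genes they carried. Cells with more of Dapl1, Tmie and Igfbp4 than of Nrn1, Tnfsf8 and Cd40lg numbered 23 in lymph node and 74 in spleen and are called the Dapl1 side. Cells with more of the latter numbered 90 and 95 and are called the Nrn1 side, and 38 and 94 cells had equal numbers. Median UMIs were 3214 and 3032 on the Dapl1 side and 5009 and 3339 on the Nrn1 side, so the lymph node groups differ in depth.

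The Dapl1 side carried the resting genes. Klf2 was at 1049 CPM on the Dapl1 side and 232 CPM on the Nrn1 side of lymph node, a ratio of 4.52 (interval 3.49 to 5.86), and at 566 and 310 CPM in spleen, a ratio of 1.83 (interval 1.45 to 2.31). Lef1 was at 294 and 83.3 CPM in lymph node and at 344 and 178 CPM in spleen. Ccr7 was at 294 and 162 CPM and at 549 and 349 CPM. Satb1, a chromatin organiser of resting T cells, was at 127 and 42.4 CPM and at 211 and 120.2 CPM. S1pr1 was at 137 and 22.9 CPM and at 78.4 and 37.0 CPM, and Ly6c1 at 108 and 11.4 CPM and at 57.9 and 16.2 CPM. Bcl2, a survival gene, was at 578 and 189 CPM and at 746 and 472 CPM, and Tsc22d3, a glucocorticoid-induced gene, at 382 and 134 CPM and at 409 and 187 CPM. All of these were higher on the Dapl1 side in both libraries. Il7r was not, at 78.4 and 75.1 CPM in lymph node, and its spleen ratio had an interval that included 1, at 92.0 and 50.8 CPM. Il7r on the Dapl1 side was also below the 211 and 183 CPM of detected cells. Bach2, a repressor that restrains effector genes, was at 58.8 and 21.2 CPM and at 44.3 and 32.4 CPM, with intervals that included 1 in both. Some of the markers of naive cells were therefore higher in this minority of the members, and others were not. Cd4 was lower on the Dapl1 side, at 108 against 193 CPM in lymph node, where the interval of the ratio included 1. In spleen it was at 92.0 against 187 CPM. Whether CD8 cells that gave no CD8 UMI were among the Dapl1 side was not tested.

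Even there Klf2 differed between tissues. In lymph node the Dapl1 side was near the detected cells, at 1049 against 906 CPM, and in spleen it was below them, at 566 against 980.1 CPM. Lef1 was above the detected cells in both, at 294 against 169 CPM and at 344 against 183 CPM. Tcf7 did not separate the sides, at 157 CPM on the Dapl1 side and 136 CPM on the Nrn1 side in lymph node and at 157 and 210.3 CPM in spleen.

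The Nrn1 side carried many genes of activated cells, though not all. Pdcd1 was at 119 CPM on the Nrn1 side and 19.6 CPM on the Dapl1 side of lymph node, and at 136 and 13.6 CPM in spleen. On the Dapl1 side it had 2 UMIs from 1 cell in lymph node and 4 UMIs from 4 cells in spleen. Cd200 was at 310.2 and 78.4 CPM, a ratio of 3.96 (interval 1.97 to 9.30), and at 291 and 85.2 CPM, a ratio of 3.42 (interval 2.21 to 5.48). Lag3, an inhibitory receptor, was at 132 CPM in lymph node and 94.8 CPM in spleen, with 0 UMIs on the Dapl1 side of both. Tnfrsf4, the receptor OX40, was at 511 and 88.2 CPM and at 432 and 130 CPM, and Tnfrsf9 at 183 and 49.0 CPM and at 263 and 40.9 CPM. Both receptors belong to the Treg list as well. Ncl was at 1007 and 353 CPM and at 943 and 399 CPM. Ifng, the cytokine interferon gamma, was at 49.0 and 25.4 CPM with 0 UMIs on the Dapl1 side. Cell cycle genes followed, with Hist1h2ap at 736 and 39.2 CPM and at 208 and 17.0 CPM, and Pclaf at 302 and 0 CPM and at 169 and 13.6 CPM. Cd69, an immediate early gene, went the other way. It was at 134 CPM on the Nrn1 side and 206 CPM on the Dapl1 side of lymph node, and at 162 and 279 CPM in spleen. Myc was near even, at 42.4 and 39.2 CPM and at 23.1 and 20.4 CPM.

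Ikzf2 was also on the Nrn1 side, at 222 CPM against 58.8 CPM on the Dapl1 side of lymph node and at 317 against 116 CPM in spleen. Both sides were below the 808 and 782 CPM of detected cells. Nrp1, the receptor neuropilin-1 of thymus-derived Treg cells, was at 84.9 against 49.0 CPM and at 85.5 against 13.6 CPM, near the 92.3 and 81.3 CPM of detected cells on the Nrn1 side. Il2ra did not separate them, at 49.0 against 58.8 CPM and at 83.2 against 112 CPM. Il2 was at 50.6 against 29.4 CPM and at 57.8 against 20.4 CPM. The lymph node values rest on 3 UMIs on the Dapl1 side. In spleen 1 cell gave 18 of the 25 UMIs on the Nrn1 side, and the Dapl1 side had 6 UMIs. The spleen difference therefore rests on that cell.

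**Figure D3:**
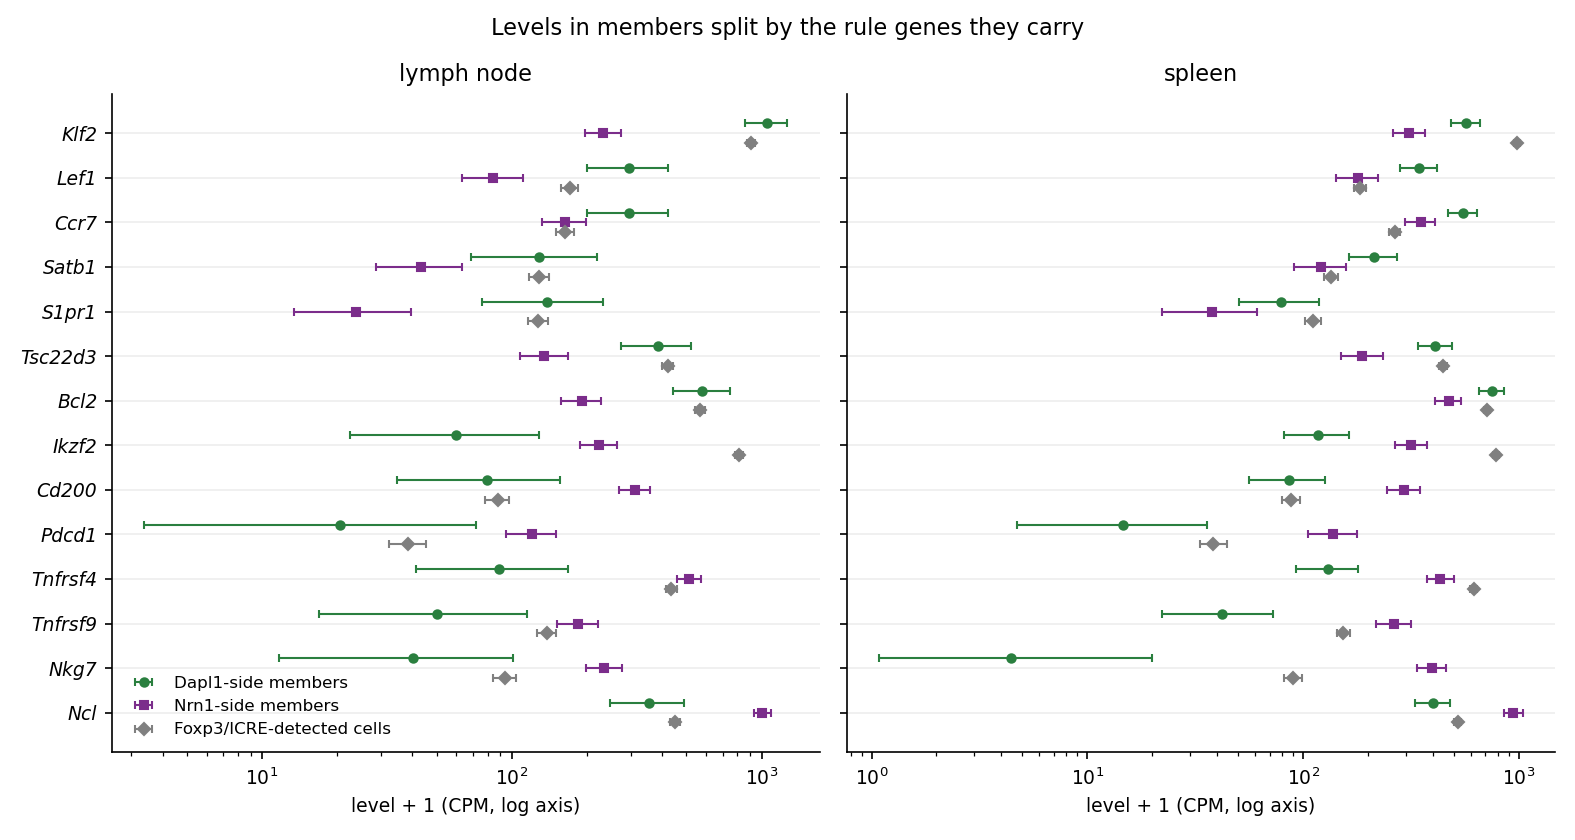
Levels plus 1 (CPM, log axis) of 14 genes on the Dapl1 side (green circles) and the Nrn1 side (purple squares) of the members and in Foxp3/ICRE-detected cells (grey diamonds), in lymph node (left) and spleen (right). Bars are 95% Poisson intervals. Klf2 to Bcl2 are higher on the Dapl1 side and Ikzf2 to Ncl on the Nrn1 side in both tissues.

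Without the deepest cells and with other weights, the direction was kept for the genes reread, whose 34 ratios were all past 1.5-fold to begin with. Genes that did not separate the sides, such as Il7r, Tcf7 and Myc, were not reread. Nor were Cd69, Lag3, Ifng, Hist1h2ap and Pclaf. A stricter division, at least 2 genes of one side and at most 1 of the other, gave log2 ratios of Nrn1 side over Dapl1 side of -2.23 and -0.88 for Klf2, 1.92 and 1.44 for Ikzf2 and 1.98 and 1.78 for Cd200. Without the 6% of barcodes with the most UMIs they were -1.38 and -0.88, 4.11 and 2.17, and 4.11 and 1.74, and the lymph node values rest on few UMIs on the Dapl1 side. Single genes were also read, with no requirement of 3, over all cells without Foxp3, ICRE or CD8 transcripts and within the B cell limit. Cells with Igfbp4 (162 in lymph node and 665 in spleen) had Klf2 at 1362 and 919 CPM and Ikzf2 at 218 and 238 CPM. Cells with Nrn1 (238 and 283) had Klf2 at 477 and 529 CPM and Ikzf2 at 583 and 650 CPM. Ikzf2 in all cells with Nrn1 was thus well above its level in the Nrn1-side members. Over Dapl1, Tmie and Igfbp4, Klf2 ranged from 844 to 1362 CPM in lymph node and from 624 to 919 CPM in spleen. Over Nrn1, Tnfsf8 and Cd40lg it ranged from 477 to 668 CPM and from 493 to 759 CPM, so the ranges overlapped in spleen, where cells with Tnfsf8 were above cells with Dapl1. Ikzf2 ranged from 179 to 274 CPM and from 148 to 245 CPM over the first 3 genes and from 262 to 583 CPM and from 371 to 650 CPM over the others, overlapping in lymph node, where cells with Cd40lg were below cells with Tmie.

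Between tissues, members of lymph node had more cell cycle transcripts and members of spleen more resting-cell transcripts. Of 2460 genes tested, 110 were at least 1.5-fold higher in lymph node, or 4.47%, and 71 in spleen, or 2.89%. Lymph node and spleen are 1 library each, so tissue and library cannot be told apart. The mix of sides differed too, with the Dapl1 side making up 23 of 151 lymph node and 74 of 263 spleen members.

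Of 13 cycling genes, 12 were higher in lymph node members, with a median log2 ratio of 1.05 beside -0.50 in the detected cells of the same libraries. Hist1h2ap, a replication-dependent histone, was at 751 CPM in lymph node and 96.6 CPM in spleen, from 25 and 21 members, with 145 UMIs in 1 lymph node cell. Rrm2, a subunit of the enzyme that makes DNA precursors, was at 136 and 20.6 CPM. Hmgb2, a chromatin protein of dividing cells, was at 1090.4 and 487 CPM, and at 731 and 755 CPM in detected cells. Without the 6% of barcodes with the most UMIs 3 cycling genes were left to test, with a median log2 ratio of -0.065, and Hist1h2ap had a log2 ratio of 1.10. The other 10 cycling genes were below the CPM limit there and gave no value.

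Other genes higher in lymph node members were shared with detected cells. Cxcr3, a chemokine receptor for inflamed tissue, was at 107 and 27.7 CPM in members and at 137 and 54.0 CPM in detected cells. Gimap7 was at 167 and 56.4 CPM and at 263 and 97.6 CPM, and 4 of 7 Gimap genes were higher in lymph node members. S100a11 was at 307 and 130 CPM in members but at 478 and 418 CPM in detected cells.

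In spleen members, Ccr7 was at 449 CPM against 182 CPM in lymph node, a ratio of 2.47 (interval 2.07 to 2.97), where detected cells had 264 and 163 CPM. Igfbp4 was 3.46-fold higher in spleen members (interval 2.71 to 4.46), and it was also at 118 against 20.9 CPM in detected cells, which were not chosen by it. Satb1 was at 156 against 71.3 CPM in members and level in detected cells, at 134 against 127 CPM. Bcl2 was at 571 against 288 CPM in members and 708 against 566 CPM in detected cells. Itm2a, a membrane protein of activated and developing T cells, was at 261 against 90.2 CPM, Rgs1 at 306 against 124 CPM and Socs1, a cytokine feedback inhibitor, at 122 against 44.5 CPM. Il2ra was at 104 against 50.1 CPM. Ccr7 was higher in spleen on both sides, at 549 against 294 CPM on the Dapl1 side and 349 against 162 CPM on the Nrn1 side, so it was higher within each side as well. Interferon response genes had 6 of 13 higher in spleen members and 0 in lymph node. Gm2663, which ranked first for spleen, had 116 of its 117 UMIs in 1 cell.

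**Figure D4:**
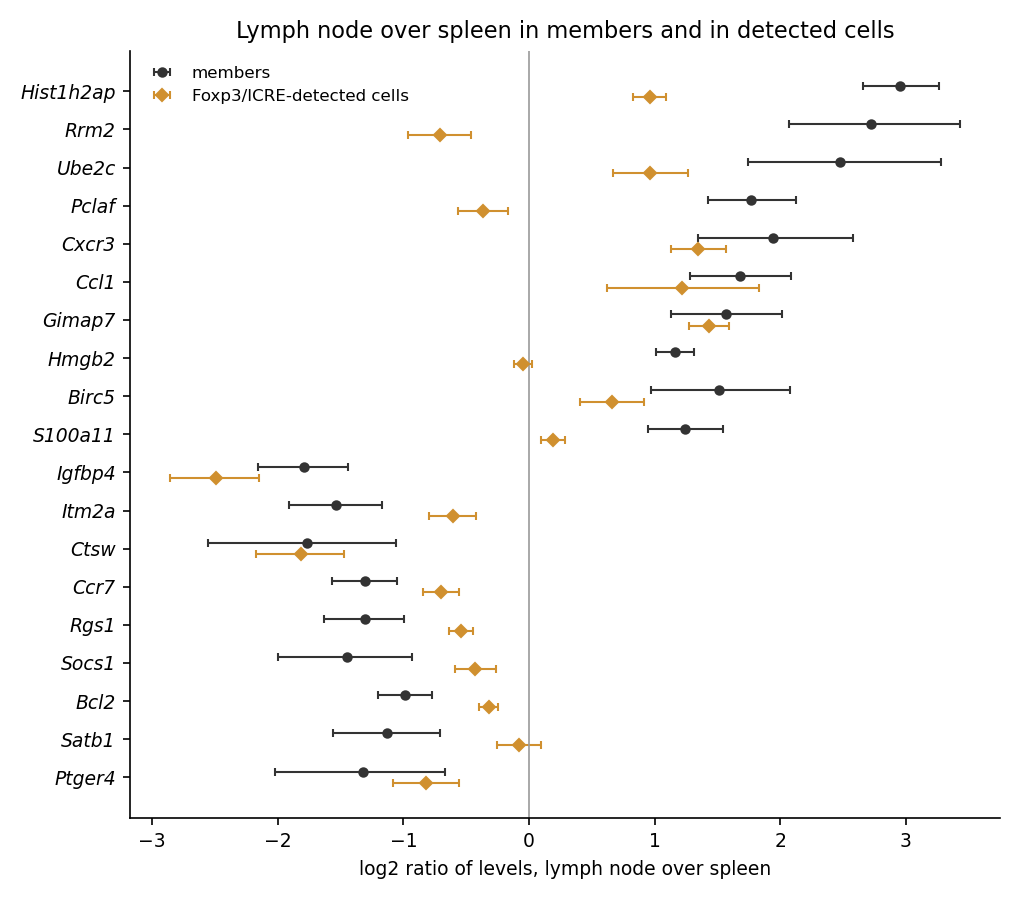
Log2 ratio of levels, lymph node over spleen (x axis), in members (dark circles) and Foxp3/ICRE-detected cells (orange diamonds) for the genes named between tissues, with 95% intervals of counting error. Gm2663 is left out because detected lymph node cells had 0 UMIs. Hmgb2 and Rrm2 are higher in lymph node in members alone, and Cxcr3, Gimap7 and Igfbp4 lie on the same side of 0 in both groups.

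Variation among single members was read at 1200 UMIs per cell as the variance over the mean of a gene, whose median over 3334 genes was 0.98 in lymph node and 0.995 in spleen. The most variable genes were Spp1, Malat1, Ccl1, Actb, Nkg7, Trbc1, Tmsb4x, Ifi27l2a, Klf2 and Rps27. Spp1, the secreted protein osteopontin, had a ratio of 14.7 and 29.1, and Ccl1, a chemokine of activated T cells, 7.42 and 15.1. Before thinning, Spp1 had 122 UMIs in 5 lymph node members, 102 of them in 1 cell, and 89 UMIs in 2 spleen members, 88 of them in 1. Ccl1 had 190 UMIs in 5 lymph node members and 74 in 3 spleen members. Spp1 and Ccl1 also had the highest ratios of members over detected cells, at 136 against 6.87 CPM and 212 against 18.1 CPM in lymph node, and those ratios stand for these few cells. Klf2 was present after thinning in 60 of 151 and 104 of 261 members, with up to 9 and 10 UMIs in a cell.

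Shares of cells with a UMI, at 1200 UMIs per cell, gave the same order for Treg genes. Ikzf2 was found in 20.5% of lymph node members (interval 14.4 to 27.9) and 51.2% of detected cells, and in 22.6% (interval 17.7 to 28.2) and 47.8% in spleen. B cell barcodes, which should lack it, had it in 22.7% and 21.2%, at unthinned medians of 3120 and 2338 UMIs. The share over all members was thus near that of B cell barcodes, so it does not by itself show expression. The level differed between the sides of the members, as given above, and the part of free RNA, or of doublets among the B cell barcodes, was not tested. Without thinning the shares were 41.1% and 35.4% of members, 66.8% and 62.3% of detected cells, and 40.9% and 28.3% of B cell barcodes. Il2ra was found in 6.62% of lymph node members (interval 3.22 to 11.8) against 19.0% of detected cells and 9.09% of B cell barcodes, and in 11.9% (interval 8.21 to 16.4) against 22.6% and 4.81% in spleen. Without thinning, Il2ra was in 36 of 151 and 79 of 263 members, in 31.1% and 39.2% of detected cells, and in 22 of 110 and 16 of 106 B cell barcodes. Trac was found in 64.9% and 69.7% of members and in 20.9% and 17.3% of B cell barcodes, so members carried the receptor transcript like other T cells. Unthinned, it was in 139 of 151 and 241 of 263 members and in 44 of 110 and 35 of 106 B cell barcodes.

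Markers of other cells were mostly at or below their level in detected cells, apart from natural killer genes in lymph node. The summed level of 14 B cell genes was 399 CPM in lymph node and 485 CPM in spleen members, below the 858 and 1048 CPM of detected cells and the 30879 and 44863 CPM of B cell barcodes, and Ebf1 and Fcer2a were at 0 in members of both libraries. Of 9 natural killer and innate lymphoid genes 6 were seen in lymph node and 4 in spleen, at 50.1 CPM (interval 36.6 to 67.1) and 23.3 CPM in sum, with Ncr1, Klre1 and Gzma at 0 in both. Detected cells had 16.5 CPM (interval 12.6 to 21.2) and 19.5 CPM, so the lymph node members were higher. Xcl1, a chemokine also made by activated T cells, gave 39 of the 45 lymph node UMIs, from 4 cells, and 18 of the 26 spleen UMIs. On the Nrn1 side, which carried Nkg7, the list was at 68.6 and 32.4 CPM, and its part in the Nkg7 level was not tested. The 7 innate-like T cell genes summed to 8.91 and 5.37 CPM, beside 15.4 and 28.6 CPM in detected cells. The 15 myeloid genes summed to 265 and 431 CPM, below the 407 and 576 CPM of detected cells, with Csf1r, Fcgr3, C1qa and C1qb at 0. The 7 erythroid and platelet genes summed to 96.9 CPM in lymph node and 0 in spleen, beside 128 and 1.23 CPM in detected cells.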

How the data were processed

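Cells from lymph node and spleen of Mycfl/fl Foxp3Cre/WT females were profiled in 1 library per tissue with the 10x 3' V2 chemistry. The deposited values are whole-number UMI counts per gene and barcode, made by the authors with Cell Ranger 3.0.1 on mm10, per the submitters' processing notes. Barcodes with under 500 genes (259 and 297 left out, together with those over 10% mitochondrial UMIs) were dropped. No doublet caller was applied, and the deepest barcodes were left out in an alternative instead. Counts were summed over the cells of a group and divided by the group's total, as CPM, so deep cells weigh more. Genes averaging 50 CPM over both groups in each library were compared and called at a ratio of 1.5 in the same direction in both libraries. Cells are not replicates, and no test was run. The CPM and interval code was tested on simulated summed counts with Poisson error alone. Those counts held no variation between cells, so that variation was not covered. Named genes are a fixed set of markers, up to 4 of each list, and the 12 on each side (10 between tissues) whose ratio interval stayed farthest from 1 in the worse library, with 50 CPM in 1 group and 100 UMIs. Further list members were named after their values were seen. The members, gene lists and named genes were chosen with earlier results of these data known. RefSeq promoter windows were found for 5 of the 8 rule genes. Alternatives changed the limits on cells, the number of rule genes, depth, scaling, the CPM limit and the reference cells. Python 3.11.15, numpy 2.4.6, scipy 1.17.1, pandas 2.3.3 and matplotlib 3.10.9 were used.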

Additional observations from a re-analysis of the deposited data

How the results depend on the processing

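The share of members was 3.13% in lymph node and 4.02% in spleen. It was 6.22% and 7.61% among cells with at least 1000 genes, 10.7% and 14.0% with 2 or more of the 8 genes, 0.705% and 1.07% with 4 or more, 2.23% and 3.38% without the 6% of barcodes with the most UMIs, 0.416% and 1.25% after thinning, and 4.17% and 5.59% with no limit on Foxp3 and ICRE. Members against detected cells gave 36 genes higher and 77 lower. Higher and lower counts were 3 and 17 with 2 or more genes, 90 and 144 with 4 or more, 5 and 32 without the deepest barcodes, 92 and 178 at 20 CPM, 18 and 40 at 100 CPM, 11 and 51 with cells weighted equally, and 17 and 13 against detected cells with 3 or more of the genes. The higher count alone moved by over 1.5 times after thinning (105, with 100 lower), with totals that leave out ribosomal protein and mitochondrially encoded genes (82, with 96 lower) and with the UMI-weighted reference (13, with 56 lower), an alternative added after seeing the data. Between tissues, 110 genes were higher in lymph node and 71 in spleen. These counts were 49 and 30 with 2 or more genes, 301 and 185 with 4 or more, 843 and 734 after thinning, 204 and 183 with totals that leave out ribosomal and mitochondrial genes, 367 and 352 at 20 CPM, and 43 and 24 at 100 CPM. The spleen count alone moved by over 1.5 times without the deepest barcodes (158) and with cells weighted equally (120). After thinning and with 4 or more genes few cells are left, so counting error adds calls.

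Of 68 values of members against detected cells past 1.5-fold, 932 of 947 alternative values kept the direction and 15 did not. Between tissues 220 of 224 did, for 21 values, and 4 did not. Between the sides all 100 values, for 34 ratios, did. Those 34 ratios were of genes already well apart between the sides, and genes that did not separate them were not reread. The log2 ratios that reversed without the deepest barcodes were -0.37 for Srm and 0.085 for the naive list median in lymph node, -0.18 for Hspd1 and -0.16 for Ncl in spleen, and -0.065 for the cycling median between tissues. After thinning they were 0.19 for Klf2, 0.32 for Satb1, -0.28 for Npm1, -1.30 for Ncl, -0.41 for Nkg7 and -0.013 for the Myc target median in lymph node, -0.078 for Hspd1, -1.09 for Srm and -0.57 for Ncl in spleen, and 0.13 for Satb1 between tissues. Against detected cells with 3 or more of the genes they were -0.20 for Ccl1 in lymph node and 0.32 for S1pr1 in spleen. Between tissues Gm2663 was at 0.28 with 2 or more genes and Il2ra at 0.021 with 4 or more. The cause was not tested. No paired analysis was possible because each tissue has 1 library and no result comes from a test, and no library could be left out for the same reason.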
